A study of Homo sapiens with 6 samples.

Results

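The genes described here are 8 transcription factors of the lung and foregut lineages, NKX2-1, FOXA1, FOXA2, HNF4A, GATA6, SOX2, TRPS1, and TP63, in NSCLC cell lines with and without MALAT1 knockdown. They were found by gene symbol and are 8 of the 46427 genes in the table of expression values. The 8 genes were selected on these same measurements, namely their levels in each cell line and their change after si-MALAT1, with TRPS1 higher in each line. Their values are therefore given as a description, with no test. RNA-seq was performed on total RNA of 3 NSCLC cell lines from ATCC, namely A549, H1299, and H460, with a control library and a si-MALAT1 library of each line, 6 libraries in all. The labels give the treatment of the control cells as "non". The methods describe si-Control cells too, and which of the 2 kinds of control was sequenced is not given. The si-MALAT1 cells were transiently transfected with siRNA against MALAT1. Each line is a single established culture of tumor cells, and each combination of line and treatment has 1 library, so a change within a line has no replicate check.

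NKX2-1 specifies lung epithelium and drives surfactant genes in alveolar and club cells, and its loss in lung adenocarcinoma is known to go with a gastric or hepatic program under FOXA1, FOXA2, and HNF4A. FOXA1 and FOXA2 are forkhead pioneer factors that open chromatin, GATA6 is a zinc finger factor of foregut endoderm, and TRPS1 is an atypical GATA family protein that acts mainly as a repressor. SOX2 and TP63 mark basal cells of the airway and are the lineage factors of squamous lung carcinoma.

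Promoter windows of 250 bases before annotated start sites were read from RefSeq on GRCh38.p14 and searched on both strands for 3 short motifs. These were the forkhead motif TGTTTAC and its variant form TGTTTGC, and the GATA motif AGATAA. Windows were found for 6 of the 8 genes, 8 windows in all, and not for FOXA2 and TRPS1. An HNF4A window and a NKX2-1 window are shown because these genes were detected in only 1 of the 3 lines, HNF4A in A549 and NKX2-1 in H1299. For each gene the window shown is the one with more motif matches, 1 against 0 for HNF4A and 2 against 1 for NKX2-1. Capitals mark the matches, and both sequences read 5′ to 3′ on the strand of the gene. The HNF4A window lies at chr20:44355449-44355698 on the plus strand, and the NKX2-1 window at chr14:36519557-36519806 on the minus strand. The first lies upstream of the annotated HNF4A gene and overlaps an exon of the lncRNA LOC105372629 on the opposite strand. The NKX2-1 window lies within NKX2-1 outside its exons and overlaps an exon of the lncRNA NKX2-1-AS1 on the opposite strand. It also lies directly upstream of the annotated lncRNA SFTA3 on the same strand.
HNF4A: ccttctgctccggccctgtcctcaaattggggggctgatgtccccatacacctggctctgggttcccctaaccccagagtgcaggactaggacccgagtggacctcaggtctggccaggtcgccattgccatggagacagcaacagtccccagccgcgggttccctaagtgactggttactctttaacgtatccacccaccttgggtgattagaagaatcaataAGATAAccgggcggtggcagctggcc
NKX2-1: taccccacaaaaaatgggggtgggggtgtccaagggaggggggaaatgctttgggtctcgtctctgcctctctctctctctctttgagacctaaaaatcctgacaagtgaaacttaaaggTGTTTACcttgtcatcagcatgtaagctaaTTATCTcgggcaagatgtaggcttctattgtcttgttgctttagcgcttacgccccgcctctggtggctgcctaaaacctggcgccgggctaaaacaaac
The HNF4A window held the GATA motif 26 to 21 bases before the start. The NKX2-1 window held the forkhead word TGTTTAC 130 to 124 bases and the GATA motif 100 to 95 bases before its start. The GATA motif of the NKX2-1 window lies on the opposite strand and is printed as its reverse complement, and no matches overlap. Among all 35116 promoter windows of this length, the forkhead word TGTTTAC was found in 2.98% and its variant in 3.23%, and the GATA motif in 9.17%. The forkhead variant was also found in the FOXA1 window and in the other NKX2-1 window, and none of these motifs was found in the other HNF4A window or in those of GATA6, SOX2, and TP63. A match is a word in the sequence and no evidence of binding.

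The deposited read counts summed to between 42506818 and 68515992 per library. MALAT1, the check of the labels, was lower in every line after its knockdown, by 7.17-fold in A549, 7.76-fold in H1299, and 4.98-fold in H460. Log2 fold changes below are si-MALAT1 minus control of log2(count + 1), after scaling the counts with RLE (relative log expression) size factors. Brackets hold exact 95% Clopper-Pearson intervals, computed from how a gene's reads divided between the pair of libraries compared, within a line or between lines, which cover counting error only. Levels are TPM, which the authors scaled for transcript length and depth, so that genes of a library can be compared. The median log2 fold change of the 17834 genes with at least 1 read in every library was 0.01 in A549 and 0.02 in each other line. Fewer cells expressing a gene and less RNA per cell cannot be told apart in such bulk libraries.

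Each cell line was led by a different set of the 8 factors. In H460, FOXA1 made up 88.4% of the summed TPM of the 8 genes in the control and 87.7% after si-MALAT1. In H1299, TRPS1 held 47.1% and 69.3%, followed by GATA6 with 31.9% and 22.0%. In A549, HNF4A held 45.5% and 42.8% and FOXA2 held 33.4% and 29.0%. The summed level itself was 36.2 and 53.6 TPM in A549, 12.1 and 20.0 TPM in H1299, and 8.80 and 10.6 TPM in H460. It was thus higher after si-MALAT1 in each line. In H1299 the rise came from TRPS1, the gene chosen for its change, which went from 5.69 to 13.8 TPM. There the TPM of FOXA1, FOXA2, and SOX2 was lower and that of GATA6, NKX2-1, and TP63 higher.

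**Figure D1:**
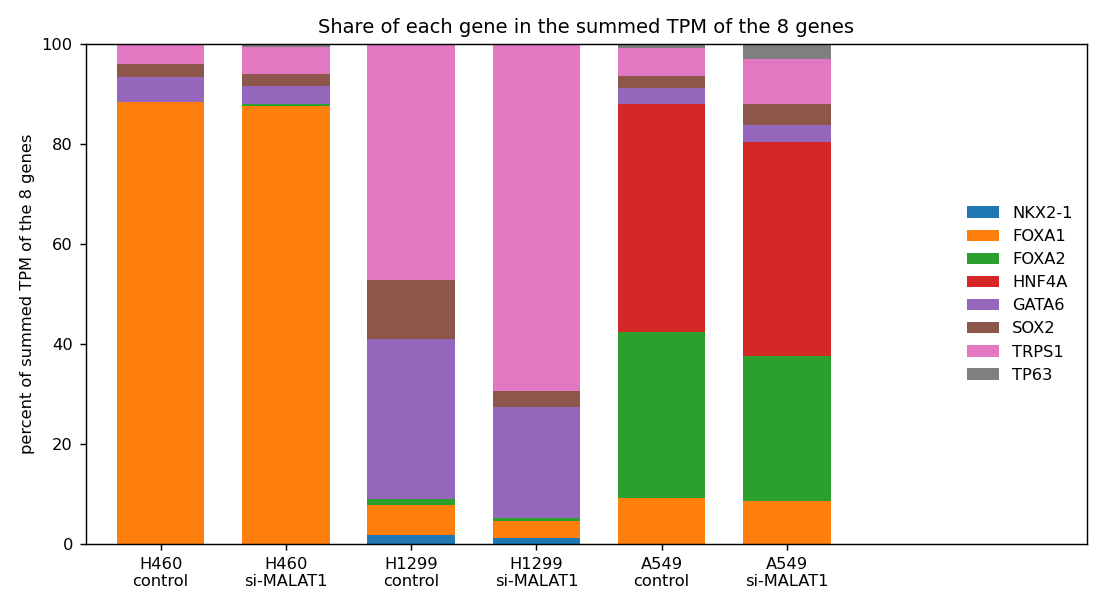
Stacked bars give the percent of the summed TPM of the 8 genes held by each gene, with 1 bar per library. FOXA1 fills most of both H460 bars, TRPS1 and GATA6 most of the H1299 bars, and HNF4A and FOXA2 most of the A549 bars.

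HNF4A, a nuclear receptor of liver and intestine, was the most abundant of the 8 genes in A549 and had no reads in the other lines. Its TPM was 16.4 in the A549 control and 22.9 after si-MALAT1, above 79.4% and 85.4% of the genes with reads in those libraries. The counts behind these levels were 2948 and 4626 reads. Both H460 libraries and both H1299 libraries held 0 reads, which allows up to 3 reads each, or between 0.00998 and 0.0123 TPM. Against that floor of 3 reads per library, A549 was at least 1399-fold higher than either other line in the control cells and at least 1877-fold higher after si-MALAT1. Within A549, the log2 fold change of HNF4A was 0.51 (0.44 to 0.57).

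FOXA2, the forkhead factor that accompanies HNF4A in hepatic cells, followed the same order. Its TPM was 12.1 and 15.5 in the A549 control and si-MALAT1 libraries, 0.148 and 0.121 in H1299, and 0 and 0.0391 in H460. Both A549 libraries lay above all 4 others. In the control cells A549 was 80.8-fold higher than H1299 (53.1 to 129) and at least 508-fold higher than H460. The log2 fold change after si-MALAT1 was 0.35 (0.24 to 0.47) in A549 and -0.31 (-1.35 to 0.67) in H1299, where only 22 and 16 reads were counted. In H460 the count was 0 in the control and 7 after si-MALAT1, at least 2.47-fold higher, near the limit of detection.

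FOXA1, its close relative, was ordered differently, with H460 highest and H1299 lowest. Its TPM was 7.78 and 9.33 in H460, 3.32 and 4.61 in A549, and 0.727 and 0.675 in H1299, so the ranges of the 3 lines did not overlap. In the control cells H460 was 13.8-fold higher than H1299 (11.7 to 16.5) and 2.79-fold higher than A549 (2.51 to 3.10). The log2 fold change after si-MALAT1 was 0.40 (0.30 to 0.49) in H460 and 0.39 (0.22 to 0.57) in A549. In H1299 it was -0.17 (-0.53 to 0.19), an interval that spans 0. FOXA1 was thus under 1.5-fold in every line.

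NKX2-1, the defining factor of lung epithelium, was at or near 0 in these lung tumor lines. It was counted with 28 reads in the H1299 control and 30 reads after si-MALAT1, or 0.221 and 0.271 TPM, and with 0 reads in both H460 and both A549 libraries. A count of 0 allows up to 0.0282 and 0.0299 TPM in H460 and up to 0.0402 and 0.0363 TPM in A549. H1299 was at least 7.29-fold higher than A549 and at least 8.87-fold higher than H460 in the si-MALAT1 cells. Its log2 fold change in H1299 was 0.22 (-0.56 to 1.03), an interval that spans 0.

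**Figure D2:**
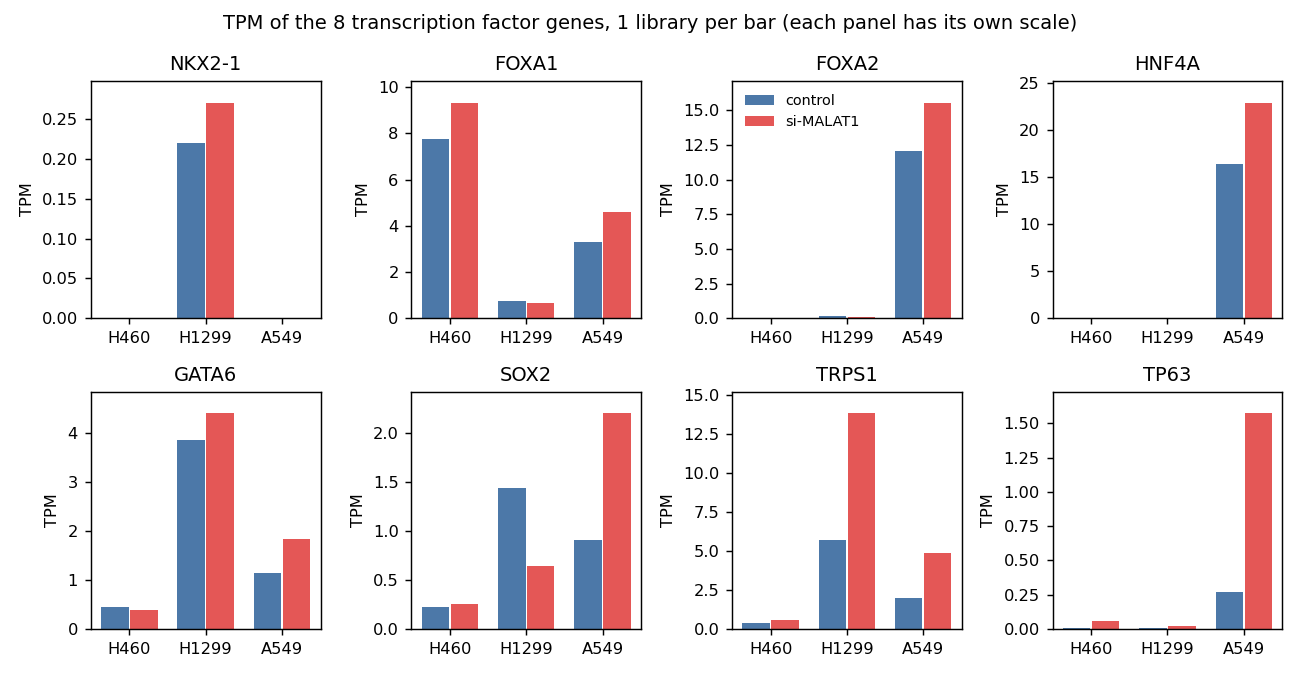
Bars give the TPM of each of the 8 genes in the control (blue) and si-MALAT1 (red) library of each cell line, on a separate scale per panel. HNF4A and FOXA2 stand out in A549, FOXA1 in H460, and TRPS1 and GATA6 in H1299, while NKX2-1 stays at 0.271 TPM or less.

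GATA6 and TRPS1, the members with GATA zinc fingers, were both highest in H1299, intermediate in A549, and lowest in H460. The TPM of GATA6 was 3.85 and 4.40 in H1299, 1.15 and 1.84 in A549, and 0.447 and 0.383 in H460, with no overlap between lines. In the control cells H1299 was 3.32-fold higher than A549 (2.78 to 3.99) and 7.27-fold higher than H460 (5.87 to 9.09). The log2 fold change after si-MALAT1 was 0.68 (0.39 to 0.99) in A549, from 146 to 260 reads. It was 0.13 (-0.02 to 0.27) in H1299 and -0.08 (-0.52 to 0.36) in H460, and both of these intervals reach across 0.

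TRPS1 was higher after si-MALAT1 in each of the 3 lines, which is the change it was chosen by. In H1299 its TPM was 5.69 in the control library and 13.8 in the si-MALAT1 library, from 3245 and 6900 reads. A549 had 2.01 and 4.90 TPM, from 690 and 1897 reads, and H460 had 0.350 and 0.579 TPM, from 204 and 351 reads. Control and si-MALAT1 libraries overlap across the lines, because the lines differ by more than the change within a line. In the control cells H1299 was 2.83-fold higher than A549 (2.61 to 3.08) and 13.6-fold higher than H460 (11.8 to 15.8). Within a line TRPS1 was higher by 2.49-fold in A549, 2.33-fold in H1299, and 1.82-fold in H460. On the log2 scale these changes were 1.31 (1.19 to 1.44), 1.22 (1.16 to 1.28), and 0.86 (0.61 to 1.12), with a mean of 1.13 ± 0.24 (SD, n = 3 cell lines). The counting intervals of H1299 and A549 overlap, and that of H460 lies below both. In H1299, TRPS1 moved from above 64.5% to above 78.3% of the genes with reads. On the log2(TPM + 1) scale, where 1 is added to levels that are under 1 TPM in H460, the H460 change was 0.23, which is under 1.5-fold, and the mean over the lines was 0.78.

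SOX2, a factor of foregut and basal progenitors, was the member with counting intervals on opposite sides of 0 in different lines. Its TPM was 1.44 in the H1299 control and 0.646 after si-MALAT1, 0.911 and 2.20 in A549, and 0.220 and 0.252 in H460. The ranges of H1299 and A549 overlap, and both H460 libraries lay below the other 4. The control of H1299 was 1.57-fold above the control of A549 (1.21 to 2.06), and after si-MALAT1 A549 was 3.61-fold above H1299 (2.79 to 4.72). The log2 fold change was -1.21 (-1.61 to -0.84) in H1299, from 209 to 82 reads, and 1.28 (0.91 to 1.68) in A549, from 80 to 216 reads. In H460 it was 0.31 (-0.38 to 1.04), from 33 to 39 reads. The difference between the lines was not tested, since each rests on 1 library per treatment.

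TP63, the factor that maintains basal and squamous cells, was the least abundant of the 5 genes with reads in every library. Its TPM was 0.266 in the A549 control and 1.57 after si-MALAT1, from 47 to 304 reads, a log2 fold change of 2.53 (2.10 to 3.02). In H460 the count went from 2 to 18 reads, or 0.00570 to 0.0562 TPM, a log2 fold change of 2.71 (1.19 to 6.40). In H1299 it went from 2 to 5 reads, a log2 fold change of 1.05 (-1.16 to 4.85), an interval that spans 0. Most of the TP63 reads thus came from A549. With 10 instead of 1 added to the counts, the H1299 change was under 1.5-fold.

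Of the 8 genes, FOXA1, GATA6, SOX2, TRPS1, and TP63 had at least 1 read in every library, and the following counts concern these 5. In H460, 2 of the 5, TRPS1 and TP63, were at least 1.5-fold higher and 0 were lower, where 9.50% of the 17834 genes were higher and 10.3% lower by that fold. In H1299, 2 were higher, TRPS1 and TP63, and 1 was lower, SOX2, against 11.7% and 11.4% of all genes. In A549, 4 were higher, GATA6, SOX2, TRPS1, and TP63, and 0 were lower, against 11.5% and 11.4%. TRPS1 and TP63 were at least 1.5-fold higher in all 3 lines, as were 212 of the 17834 genes, or 1.19%. Since the genes were picked from these changes, nothing is read from their share. With a mean of at least 10 reads over both A549 libraries as the filter in A549 alone, a choice made after the values were seen, 7 of the 8 genes were counted, and 4 were higher and 0 lower, with a median log2 fold change of 0.68. By that filter 12.6% of 18025 genes were higher and 11.2% were lower, with a median of 0.02.

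**Figure D3:**
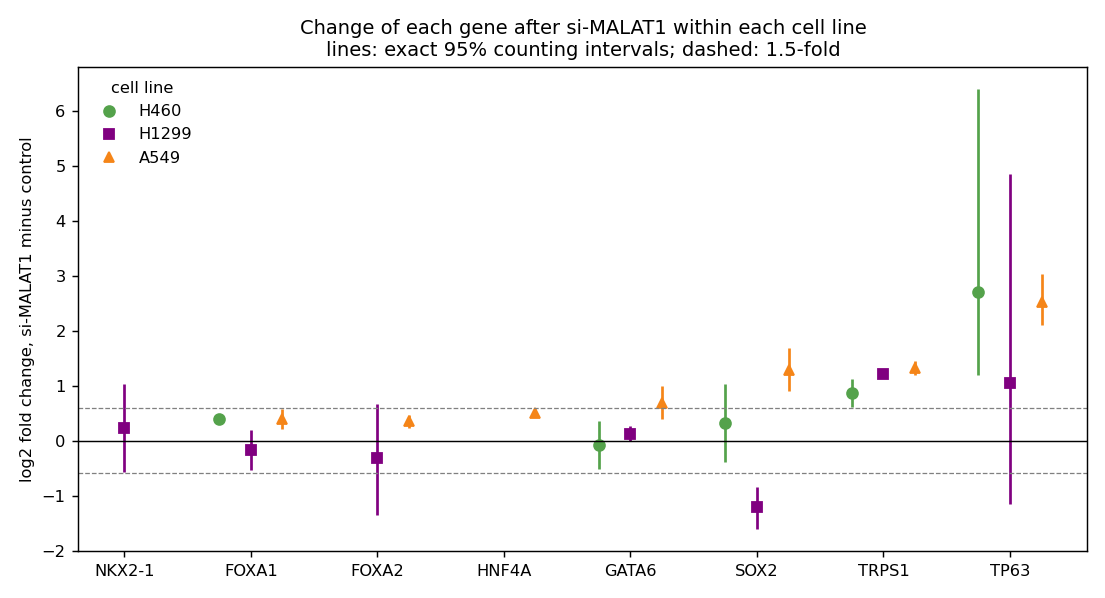
Points give the log2 fold change of each gene after si-MALAT1 within H460 (circles), H1299 (squares), and A549 (triangles), vertical lines the exact 95% counting intervals, and dashed lines 1.5-fold. A gene is left out of a line whose control had 0 reads. TRPS1 lies above the upper dashed line in the 3 lines, SOX2 lies at -1.21 in H1299 and 1.28 in A549, and TP63 has wide intervals in H460 and H1299.

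Genes that these factors are known to regulate, or that mark the lineages they specify, were compared between the cell lines with edgeR's quasi-likelihood test, with treatment as a covariate and Benjamini-Hochberg adjustment over 21771 genes. Both libraries of a line are samples of 1 cell line, a control and a si-MALAT1 library, and are not repeats. The residual spread behind the p-values is how the change after si-MALAT1 differed from line to line, not a spread between repeats. By this test 13687 genes, or 62.9%, differed between the lines at an adjusted p under 0.05, and the counts of the lists below stand beside that share. Across the 6 lists, 69 of the 75 genes tested differed. The lists were chosen with earlier results of these data known, and a gene could enter the test through the line where it was high. The counts of the lists and the p-values of their genes are therefore a description and no independent support.

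Most of the tested hepatic and gastrointestinal genes of the HNF4A and FOXA network were highest where HNF4A and FOXA2 were, in A549. All 17 of the 25 genes that could be tested differed between the lines, and 15 of the 17 were highest in A549. The other 2, SERPINA1 and MTTP, were highest in H1299, which had no HNF4A reads. SERPINA1 was at 13.3 and 12.7 TPM in H1299 and at 3.14 and 7.14 TPM in A549. The summed TPM of the list was 697 in the A549 control and 869 after si-MALAT1, against 9.75 to 16.0 in the other 4 libraries. Most of the A549 sum was TM4SF4, FGA, FGB, and FGG. TM4SF4, a tetraspanin-like membrane protein of liver and intestine, was at 242 and 295 TPM in A549 and at 0.0230 TPM or 0 in the other 4 libraries (edgeR adjusted p = 3.37e-05). FGA, the fibrinogen alpha chain made by hepatocytes, was at 144 and 192 TPM in A549, 0.177 and 0.177 in H460, and 0 in both H1299 libraries (edgeR adjusted p = 1.99e-05). FGB and FGG, the other fibrinogen chains, were at 108 to 131 TPM in A549, and FGG was also at 8.56 and 14.0 TPM in H460. APOA2, APOC3, TFF2, TFF3, and CTSE had no read in any library. ALB, APOA1, and APOB were at 0.138 TPM or less in A549, and MTTP had 0 reads there.

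After si-MALAT1, 16 genes of this list had a mean of at least 10 reads in A549, and 6 of them were at least 1.5-fold higher and 0 lower, with a median log2 fold change of 0.35. The background is the 12.6% and 11.2% given above for A549. By the same filter 3 of 5 alveolar and club cell genes were higher and 0 lower (median 0.64), and 3 of 6 markers of other cell types were higher and 1 lower (median 0.43). Of the squamous and basal genes 2 of 8 were higher and 2 lower (median -0.10), of the neuroendocrine and stem cell genes 2 of 7 were higher and 1 lower (median -0.02), and of the relatives of the 8 factors 3 of 20 were higher and 3 lower (median -0.10).

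In each library most of the alveolar and club cell genes that NKX2-1 is known to drive had 0 reads, but the list did not follow NKX2-1 by line. Its summed TPM was 30.3 and 34.5 in A549, 26.9 and 35.0 in H1299, and 80.9 and 91.8 in H460. The sum was thus highest in H460, where NKX2-1 had 0 reads, and not in H1299, the line with NKX2-1 reads. Most of the H460 sum was HOPX alone. Of 18 genes, 9 had no read in any library, among them SFTPA1, SFTPA2, and SFTPB, which encode surfactant proteins, and SCGB1A1, the club cell secretory protein. The 6 that could be tested all differed between the lines, 1 highest in A549, 2 in H1299, and 3 in H460. HOPX, a homeodomain protein of alveolar type 1 cells, was at 50.3 and 58.4 TPM in H460 and at most 0.0622 TPM elsewhere (edgeR adjusted p = 2.76e-05). LPCAT1, an enzyme of surfactant phospholipid synthesis that many other cells also make, was at 14.3 to 24.1 TPM, and ABCA3, the lipid transporter of lamellar bodies, at 4.50 to 12.5 TPM. NAPSA, the aspartic protease that matures surfactant protein B, was low, at 1.14 and 1.79 TPM in A549, 0.278 and 0.630 in H1299, and 0.106 and 0.200 in H460. It was over 1.5-fold higher after si-MALAT1 in each line, with log2 fold changes in the same order of 0.64 (0.22 to 1.07), 1.08 (0.46 to 1.78), and 1.02 (0.03 to 2.22), and did not pass the test across the lines (edgeR adjusted p = 0.306).

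The squamous and basal genes lacked several defining members. KRT5, KRT6A, and KRT14, keratins of basal and squamous cells, had no read in any library, nor did PKP1 and CALML3. KRT15, another keratin of the list, was at 0.496 and 1.72 TPM in A549, 9.32 and 8.38 in H1299, and 1.83 and 0.670 in H460. Of the 11 genes tested, 10 differed between the lines, 4 of them highest in A549, 4 in H1299, and 2 in H460. The summed TPM of the list was 98.0 in the control and 73.1 after si-MALAT1 in A549, 50.4 and 60.6 in H1299, and 103 and 78.6 in H460. PERP, a desmosomal protein, was at 76.2 and 53.3 TPM in A549, 25.4 and 33.0 in H1299, and 60.9 and 40.8 in H460, where its log2 fold changes were -0.52, 0.32, and -0.44. ITGB4, the integrin of hemidesmosomes, had log2 fold changes of -0.73, 0.40, and -0.85 in the same order. Other genes of the list were higher in some lines. S100A2, a calcium-binding protein, had log2 fold changes of -0.23, 0.04, and 0.83 in the same order, and KRT15 had 1.52, -0.19, and -1.18. DSC3, a desmosomal cadherin, had 0.72 in A549 and 0.88 in H460, and 0 reads in H1299. SERPINB5, or maspin, was at 30.6 and 26.9 TPM in H460 and had 0 reads in the other lines.

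The neuroendocrine and stem cell genes had no common line of highest level. Of the 7 that differed, 2 were highest in A549, 2 in H1299, and 3 in H460. Their summed TPM was 49.9 and 97.7 in H1299, most of it LIN28B, against 11.2 to 33.4 in the other 4 libraries. In all, 10 of the genes were tested, and the 7 are a share of 70.0% beside 62.9% of all genes. LIN28B, which blocks let-7 maturation, was at 37.2 and 78.6 TPM in H1299, 4.90 and 7.85 in A549, and 0 in H460 (edgeR adjusted p = 2.84e-05). CHGB, a granule protein, was at 4.03 and 10.1 TPM in H1299 and 7.92 and 14.6 in A549. SYP and DLL3, which did not pass the test between the lines (edgeR adjusted p = 0.0717 and 0.167), lay between 1.35 and 4.42 TPM in all libraries.

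**Figure D4:**
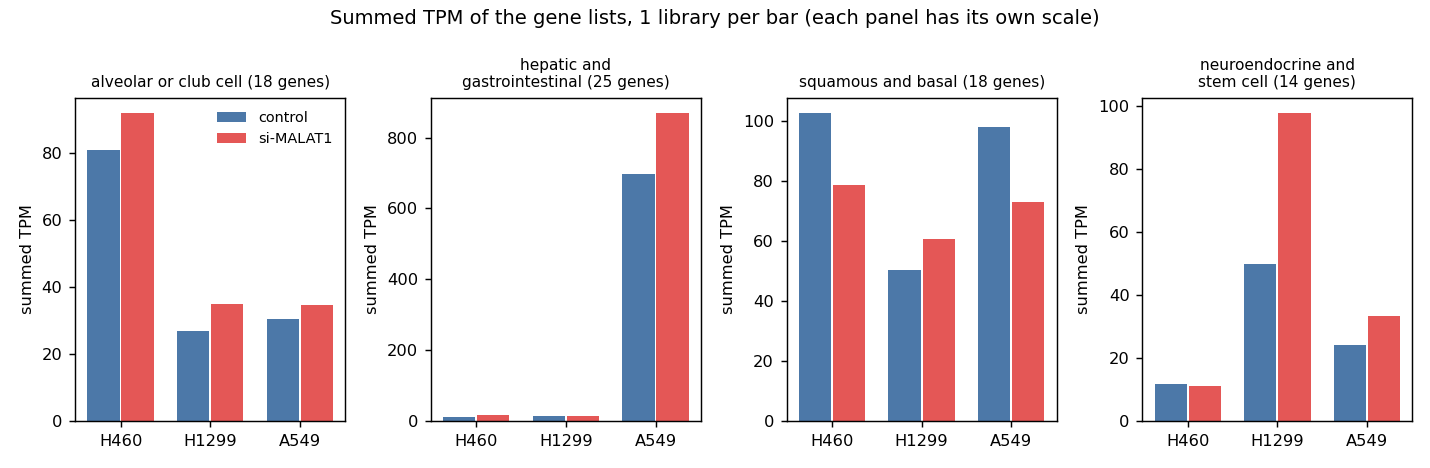
Bars give the summed TPM of the genes of 4 lists in the control (blue) and si-MALAT1 (red) library of each cell line, on a separate scale per panel. The hepatic and gastrointestinal list reaches 697 and 869 TPM in A549, the line with HNF4A and FOXA2, and stays at 16.0 or less elsewhere.

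Relatives of the 8 factors and other foregut regulators differed between the lines in 21 of 23 genes tested, 13 of them highest in A549 and 7 in H1299. ELF3, an epithelial ETS factor, was at 60.0 and 71.0 TPM in A549, 1.04 and 0.912 in H460, and 0 in H1299 (edgeR adjusted p = 2.04e-05). ID2, an inhibitor of basic helix-loop-helix factors, was at 214 and 161 TPM in A549, 37.7 and 60.1 in H460, and 15.7 and 11.1 in H1299. ETV5, an ETS factor of FGF and RAS signaling, was highest in H1299, at 30.0 and 37.0 TPM.

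Across the cell lines, si-MALAT1 was compared with control by edgeR in a model with cell line as blocking term, which keeps 2 residual degrees of freedom. It called 1 of 19122 genes, or 0.00523%, and that gene was MALAT1. Of the 53 list genes tested, 0 passed, while 10 had an unadjusted p under 0.05 and DESeq2's Wald test called 3, namely DSC3, LIN28B, and COL1A1. Of the 8 factors, 6 passed the filter on low counts of this test, all but NKX2-1 and HNF4A, and no p is given for them.

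Markers of other cell types were examined as well. PTPRC of leukocytes, CD3E of T cells, and CDH5 of endothelium had no read in any library, so 3 of the 12 markers were at 0 throughout. The summed TPM of the list was 21.2 and 21.1 in A549, 36.6 and 48.2 in H1299, and 31.8 and 27.5 in H460. All 8 markers tested differed between the lines, including CD68, a lysosomal glycoprotein found at 9.40 to 47.3 TPM. CD14 was at 7.41 and 9.25 TPM in H460, 4.53 and 9.06 in A549, and at most 0.0266 in H1299. LUM, or lumican, was at 3.93 and 3.97 TPM in H460 and at most 0.129 TPM elsewhere. COL1A1, a collagen of fibroblasts, was over 1.5-fold higher after si-MALAT1 in each line, as TRPS1 was, with log2 fold changes of 0.67 (0.45 to 0.89) in A549, 2.02 (1.53 to 2.61) in H1299, and 1.51 (1.26 to 1.77) in H460 and levels of at most 2.03 TPM. The part of other cell types in the values of the 8 factors was not tested.

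The genes whose pattern over the 6 libraries was nearest to each factor were found by the root mean square distance between centred log2(count + 1) values, and the points share cell lines and libraries. For HNF4A these were CLDN2, a claudin of leaky epithelia (distance 0.11 log2 units), FGL1, a protein secreted by hepatocytes (0.14), and FXYD2, a regulator of the sodium pump (0.25). CLDN2, like HNF4A, had 0 reads in H460 and H1299 and went from 3291 to 5586 reads in A549. For TRPS1 the nearest were VWA7 (0.19), TCF7, a Wnt pathway factor (0.30), and SPRY1, a feedback inhibitor of receptor tyrosine kinase signaling (0.34). The log2 fold changes of TCF7 were 0.58 in A549, 1.51 in H1299, and 0.59 in H460. For FOXA1 they included VAMP8 (0.16) and H3P4 (0.19), and for GATA6 MAP3K15 (0.19), HORMAD1 (0.20), and ODF2L (0.21).

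Distances for the remaining factors ran from 0.30 to 0.90. For SOX2 the nearest were LOC105369669 (0.30), CCDC62 (0.33), and H2BC10 (0.35). LOC105369669, picked by this nearness, had log2 fold changes of -0.94 in H1299, 0.72 in A549, and 0.72 in H460. For FOXA2 they were SLC7A7 (0.38), KIF12 (0.60), and PRICKLE2 (0.73). For TP63 they were C11orf86 (0.80), EPCAM (0.87), and ADAMTS10 (0.90), the widest distances of the 7 factors compared. EPCAM, an epithelial adhesion molecule, was higher by 1.16 log2 units in A549, 0.99 in H1299, and 1.33 in H460. NKX2-1 had too few reads to be compared.

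In the annotation deposited with the data, on GRCh38, NKX2-1 (Gene ID 7080) lies on chromosome 14 from 36516397 to 36520232 and FOXA1 (3169) on chromosome 14 from 37589552 to 37595249, both on the minus strand. FOXA2 (3170) lies on chromosome 20 from 22580998 to 22585490 on the minus strand and HNF4A (3172) on chromosome 20 from 44355699 to 44434596 on the plus strand. GATA6 (2627) lies on chromosome 18 from 22169589 to 22202528, SOX2 (6657) on chromosome 3 from 181711925 to 181714436, and TP63 (8626) on chromosome 3 from 189596746 to 189897279, all on the plus strand. TRPS1 (7227) lies on chromosome 8 from 115408496 to 115668975 on the minus strand, and its annotated neighbours LOC107986901 and LOC107986968 had no reads. All 8 are annotated as protein-coding.

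Some of the factors share bases with other annotated genes, and whether counting used the strand is not given in the sources used here. FOXA1 shares 51 exon bases with TTC6 on the opposite strand, which had 118 and 188 reads in A549, 82 and 178 in H1299, and 682 and 696 in H460. In H1299, where the log2 fold change of FOXA1 was -0.17, that of TTC6 was 1.24 (0.86 to 1.64). NKX2-1 shares 279 exon bases with NKX2-1-AS1, which had 6 reads in the H1299 control and 0 in the other 5 libraries, and 89 with SFTA3, which had 0 reads. HNF4A shares 75 exon bases with LOC105372629 on the opposite strand, which had 9 and 34 reads in A549, 1.69 higher on the log2 scale (0.68 to 3.02), and 0 elsewhere. SOX2 lies within an intron of SOX2-OT, which had at most 16 reads in a library. HNF4A-AS1 and MIR944, which lie within HNF4A and TP63, had no reads, and MIR3646 within HNF4A had 2 and 4 reads in A549. The part of the shared bases in the values of these factors was not tested.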

How the data were processed

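Total RNA of 3 NSCLC cell lines was sequenced as 6 libraries, 1 per line and treatment, grouped by the sample labels. After trimming, the authors used HISAT 2.1.0 for alignment to hg38 and estimated read counts, FPKM, and TPM per gene with StringTie on an NCBI annotation. The submitters' notes list StringTie 1.3.4b, and the methods another version. The deposited counts are whole numbers and not normalized, and the deposited FPKM and TPM were scaled by the authors for length and depth. Another 18 columns of per-sample values belong to another study and were not used. Libraries were stranded and depleted of ribosomal RNA.

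Log2 fold changes were taken within each cell line from RLE-scaled counts plus 1, and genes with at least 1 read in every library were counted when changed 1.5-fold or more. List genes were tested with edgeR 4.0.16 (quasi-likelihood, TMM, filterByExpr) and DESeq2 1.42.0 as the alternative, and the scripts were tested on simulated data. Both libraries of a line come from that line, which pairs them, so the cell line was the block. The 8 genes and the lists were chosen with earlier results of these data known. Genes named are the 8 factors, genes overlapping them or next to TRPS1, the 3 nearest patterns of each factor with a mean count of at least 10 among genes with a mean count of at least 50, and MALAT1. From each list they are the 4 genes with the highest mean TPM and any gene past 1.5-fold in the same direction in the 3 lines with a mean count of at least 50. Genes without reads, genes called by DESeq2, KRT15, and some hepatic genes that were low in A549 or highest in H1299 were named in addition. Some genes that fit these rules are not reported here. Depth was 42506818 to 68515992 reads per library, and 0 reads were read as at most 3. Versions were R 4.3.3, pandas 2.3.3, scipy 1.17.1, numpy 2.4.6, and Python 3.11.15.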

Additional observations from a re-analysis of the deposited data

Results flagged for a closer look

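SOX2 had log2 fold changes of opposite direction in different cell lines, with counting intervals on either side of 0. It was 1.28 in A549 and -1.21 in H1299. The difference between the lines was not tested, since each value rests on 1 control and 1 si-MALAT1 library.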

How the results depend on the processing

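No result turned direction under the alternatives tried. On log2(TPM + 1) and on log2(FPKM + 1), the number of factors at least 1.5-fold higher was 0 in H460 and 1 in H1299, and 0 were lower in H1299. The mean log2 fold change of TRPS1 was 0.78 with TPM and 0.73 with FPKM, and between 1.04 and 1.27 when a cell line was left out. At a log2 fold change of 1.5 1 factor was higher in A549, 0 in H1299, and 1 in H460, and 0 were lower in H1299. With a pseudocount of 10, 1 was higher in H1299. Across the cell lines, where edgeR called 0 genes higher and 1 lower, DESeq2 called 563 higher and 577 lower. Without the replicate block, that is without pairing by cell line, edgeR called 0 lower, and with no filter on low counts also 0. Leaving out a cell line gave between 0 and 51 higher and between 0 and 112 lower, the largest numbers without H460. Among the 8 markers of other cell types that differed between the lines, 5 to 8 did so when a library was left out, with 5 without the A549 control. With DESeq2, 13 of the hepatic and gastrointestinal genes differed between the lines instead of 17. The causes were not tested. Among 15 log2 fold changes of the 5 factors with reads in every library, 15 kept their sign under TMM scaling, a pseudocount of 10, TPM, and FPKM, and 8 left their counting interval with TPM and 8 with FPKM. Ordering by Pearson r named other genes as nearest for 6 of 7 factors and shared 1 for FOXA2. Depth limits TP63 in H460 and H1299, NKX2-1 in H1299, and FOXA2 in H460 and H1299, and 1 library per line and treatment limits every change.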
